A study of Mus musculus with 6 samples.

Results

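Endothelial cells line blood vessels and lymphatics, hold their sheet together with cell-cell adhesion proteins and take up growth signals from the surrounding tissue through receptor tyrosine kinases. In the mammary gland they supply the nutrients from which the alveoli make milk, and the capillary bed grows with the epithelium in pregnancy. The 10 genes described here are used as markers of these cells: the junction and adhesion genes Pecam1, Cdh5 and Esam, the vascular endothelial growth factor (VEGF) receptors Kdr and Flt1, the angiopoietin receptor Tek and its relative Tie1, the co-receptor Eng, the clotting protein Vwf and the surface sialoglycoprotein Emcn. Most are not wholly private to endothelium. Leukocytes and platelets also carry Pecam1, megakaryocytes also make Vwf, and Eng occurs on some stromal cells and macrophages.

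The members were taken as every probe set (a group of array probes read out as 1 value) whose only gene symbol in the platform annotation is 1 of the 10 names. This gave 15 of the 34945 probe sets with 1 symbol, among 45101 on the array, or 10 of the 18193 genes that have such a probe set. Pecam1, Kdr, Tek, Tie1, Vwf, Emcn and Esam have 1 probe set each, Cdh5 and Eng have 2, and Flt1 has 4. Each gene is described by its brightest probe set unless another is named, and all 10 genes were among the 11495 that passed the filter on dim genes. In female mice Y-linked genes should be dark, and their 20 probe sets had a median signal of 33.6 with 90% of values under 184.6. Vwf in the lactating glands lay at or under that median, Flt1 and Tie1 in the lactating glands lay between the median and 184.6, and every other value of the brightest probe sets lay above 184.6 except 1 of Tie1.

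The study measured total RNA of the whole mammary gland in 6 female mice on a mixed background of the 129, FVB and Black Swiss strains, with 1 mouse on each array. A 6 month old virgin pair held a Brca1 D11/D11;p53+/- mutant and a Brca1 D+/+;p53+/- control. A 5 month old pregnant pair, at day 16.5, held a Brca1 co/co/MMTV-Cre mutant and a Brca1 +/co/MMTV-Cre control, so that Cre was present in both. A 2 month old lactating pair, at lactation day 1, had the genotypes of the virgin pair, and all 4 of those mice lacked 1 copy of p53. The MMTV promoter drives Cre mainly in mammary epithelium, and deletion in endothelium was not measured. Each stage thus has 1 mutant and 1 control, and a stage comparison sets 2 arrays against 2. The p-values set each ratio against the spread left after stage and genotype, which is partly borrowed from all genes tested. As no stage and genotype combination has a second mouse, that spread mixes differences between mice with genotype effects that vary by stage.

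The values are MAS5 signals, a linear intensity that had been scaled to the same trimmed mean of 500.0 on every array. Median signals were 120 to 158 in the virgin and pregnant arrays and 211 and 231 in the lactating ones. The 3' to 5' ratio of beta-actin, which rises as RNA degrades, was 1.37 to 1.91 in the pregnant and lactating arrays and 2.03 and 2.74 in the virgin mutant and control. Brca1, the targeted gene, was dim, and where its probe sets lie relative to the deletion was not stated in the sources used, so it does not check the labels. Its brightest probe set read 487 in the virgin mutant and 137 in its control, 288 in the pregnant mutant and 159 in its control, and 157 in the lactating mutant and 238 in its control.

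Among the junction genes, Pecam1, a homophilic adhesion molecule, read 1343 and 965 in the virgin mutant and control, 930 and 825 in the pregnant mutant and control, while the lactating mutant had 387 and its control 328. Both lactating glands lay below the other 4, while the pregnant and virgin glands came close to each other. Cdh5, which encodes VE-cadherin of the adherens junction, read 1324 and 1894 in the virgin, 513 and 490 in the pregnant and 745 and 873 in the lactating mutant and its control. It was the member whose lowest stage was pregnancy and not lactation, and none of its 3 stages overlapped another. Esam, an adhesion molecule of endothelial tight junctions, read 1852 and 1899 in the virgin, 1081 and 981 in the pregnant and 813 and 1125 in the lactating mutant and its control. The pregnant and lactating glands overlapped in Esam, and both lay below the virgin glands.

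Of the VEGF receptors, Kdr carries most of the growth signal, and Flt1 binds the ligand tightly and also acts as a decoy. Kdr read 743 and 956 in the virgin, 827 and 743 in the pregnant and 704 and 594 in the lactating mutant and its control. The lactating pair was lowest, and the virgin and pregnant pairs overlapped. Flt1 read 610 and 617 in the virgin, 320 and 381 in the pregnant and 172 and 133 in the lactating mutant and its control. The stages did not overlap in Flt1, and the lactating values were within the range of dark probe sets. Of the angiopoietin receptor pair, Tek (also called Tie2) binds the angiopoietins and Tie1 modulates it. Tek read 1215 and 1707 in the virgin, 632 and 512 in the pregnant and 498 and 342 in the lactating mutant and its control. Tie1 read 356 and 329 in the virgin, 238 and 184 in the pregnant and 165 and 52.8 in the lactating mutant and its control. In both genes the lactating glands were lowest and the virgin glands highest, with no overlap between stages.

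Eng, endoglin, is a co-receptor for ligands of the transforming growth factor beta and bone morphogenetic protein family. It read 715 and 536 in the virgin, 682 and 541 in the pregnant and 195 and 288 in the lactating mutant and its control. Virgin and pregnant glands overlapped and the lactating glands lay below both. Vwf, von Willebrand factor, which captures platelets and is stored in granules of endothelium, read 1369 and 1120 in the virgin, 362 and 286 in the pregnant and 8.9 and 31.7 in the lactating mutant and its control. Both lactating values were under the Y-linked median, so its folds against the other stages are given with those values set to that median. Emcn, endomucin of capillaries and veins, read 1278 and 1278 in the virgin, 643 and 537 in the pregnant and 396 and 466 in the lactating mutant and its control, again with no overlap between stages. With so few arrays a stage, a lack of overlap is no test, and its share over all genes was not counted.

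**Figure D1:**
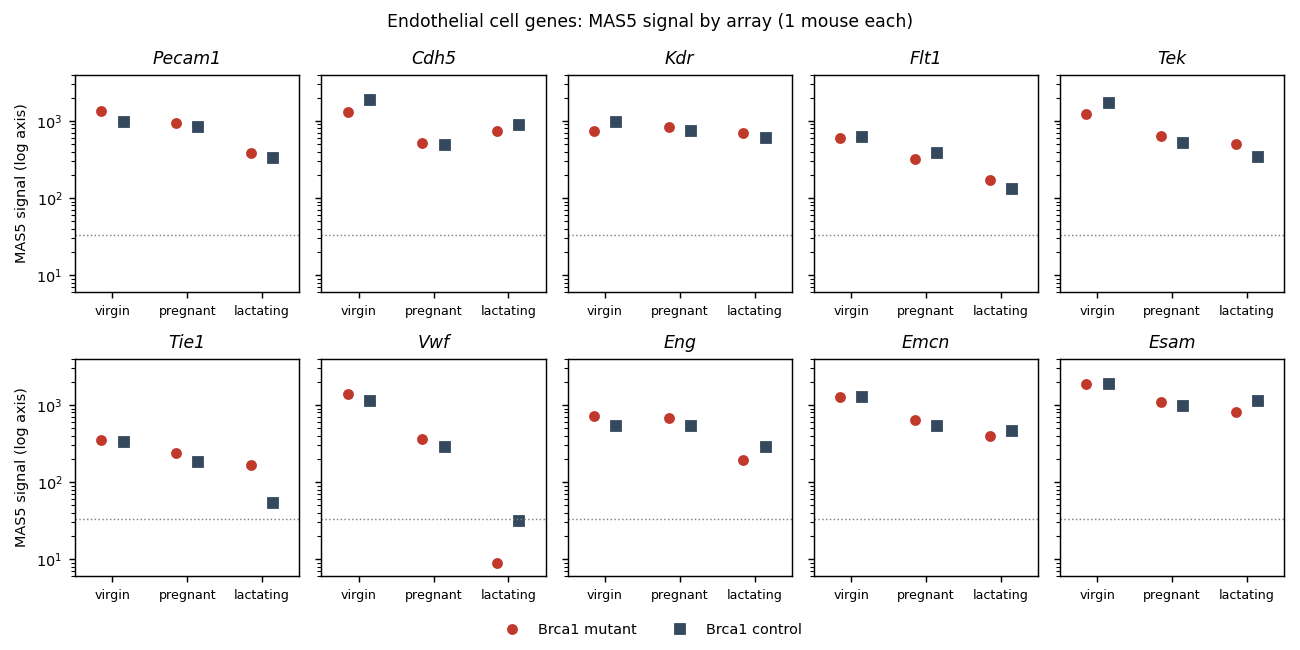
MAS5 signal (log axis) of the brightest probe set of each endothelial gene by stage, with red circles for Brca1 mutants and dark grey squares for controls, 1 mouse each; the dotted line is the Y-linked median of 33.6. Vwf falls to 8.9 and 31.7 in the lactating glands, Kdr stays between 594 and 956 in all 6, and Cdh5 is lowest in the pregnant glands.

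The promoters of the 4 receptor genes are shown because these receptors form pairs, the VEGF receptors Kdr and Flt1, and Tek with its relative Tie1. The comparisons that follow set the partners side by side. Sequences are from RefSeq on GRCm38.p6 and run from 250 bases before to 50 after the gene's start, 5' to 3' on the gene's strand. Capitals mark GGAA, the core bound by ETS factors, or TTCC, the same core on the other strand.
Kdr, chr5:75978406-75978705, minus strand: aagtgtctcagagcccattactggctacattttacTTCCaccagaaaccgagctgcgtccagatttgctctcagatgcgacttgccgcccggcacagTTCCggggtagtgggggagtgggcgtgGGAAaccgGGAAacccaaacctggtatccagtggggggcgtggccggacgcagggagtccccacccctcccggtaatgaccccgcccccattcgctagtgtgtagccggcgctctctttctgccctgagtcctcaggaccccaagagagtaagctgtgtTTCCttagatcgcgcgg
Flt1, chr5:147725962-147726261, minus strand: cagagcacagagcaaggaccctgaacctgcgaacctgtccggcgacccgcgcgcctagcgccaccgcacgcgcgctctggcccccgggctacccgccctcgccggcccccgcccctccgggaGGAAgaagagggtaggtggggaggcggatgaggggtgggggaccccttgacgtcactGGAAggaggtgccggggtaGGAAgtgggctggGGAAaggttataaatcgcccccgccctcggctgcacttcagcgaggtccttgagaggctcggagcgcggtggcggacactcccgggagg
Tek, chr4:94739039-94739338, plus strand: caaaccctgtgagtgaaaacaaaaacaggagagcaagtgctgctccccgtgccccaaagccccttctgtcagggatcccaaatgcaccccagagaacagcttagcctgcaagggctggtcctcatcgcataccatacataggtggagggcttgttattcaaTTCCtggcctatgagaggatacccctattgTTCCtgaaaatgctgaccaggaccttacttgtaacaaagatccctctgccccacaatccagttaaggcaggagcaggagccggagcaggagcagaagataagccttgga
Tie1, chr4:118489800-118490099, minus strand: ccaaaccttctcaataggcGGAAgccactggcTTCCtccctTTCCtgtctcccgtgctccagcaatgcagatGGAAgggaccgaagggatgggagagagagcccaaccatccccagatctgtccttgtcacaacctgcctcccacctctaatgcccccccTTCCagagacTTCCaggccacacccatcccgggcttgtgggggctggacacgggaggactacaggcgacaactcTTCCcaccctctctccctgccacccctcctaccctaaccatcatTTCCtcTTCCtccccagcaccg
The table held a promoter for 6 of the 10 members. The core occurred 5 times in Kdr, 4 in Flt1, 2 in Tek, 9 in Tie1, 4 in Eng and 6 in Emcn, counted on both strands with overlaps allowed. It is a common motif, present in 96.0% of all 32851 promoters of this length with a median of 3, and 1.59% held at least 9. The longer forms AGGAAG or CGGAAG occurred in 4 of the 6 (Flt1, Tie1, Eng and Emcn) and in 46.5% of all promoters. GATA, on either strand, occurred in 3 of the 6 (Kdr, Tek and Emcn) and in 57.9% of all promoters. These matches describe the letters of the window only.

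In pregnant against virgin glands the clotting protein, the cadherin, the angiopoietin receptor, endomucin and Esam were lower, while the VEGF receptors, Pecam1, Tie1 and Eng did not pass the test. Of the 10 genes 5 passed, all lower (limma over all genes with stage and genotype in the model, adjusted p under 0.05), where 8.26% of the 11495 genes tested were called lower. Vwf fell by 1.79 ± 0.30 on the log2 scale (SE, 2 arrays a stage; limma adjusted p = 0.00999) and Cdh5 stood at -1.56 ± 0.22 (limma adjusted p = 0.00575). Tek stood at -1.26 ± 0.27 (limma adjusted p = 0.0219), Emcn at -1.06 ± 0.21 (limma adjusted p = 0.0190) and Esam at -0.83 ± 0.21 (limma adjusted p = 0.0409). All log2 ratios are of signal plus a pseudocount of 52.1 and understate the change of dim genes. In each of these 5 genes both the mutant and the control pair of stages gave a negative ratio, for Tek -0.89 between mutants and -1.64 between controls, and for Vwf -1.78 and -1.80.

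Not called in that comparison were Flt1 at -0.73 ± 0.25, Tie1 at -0.59 ± 0.34, Pecam1 at -0.36 ± 0.20, Kdr at -0.10 ± 0.22 and Eng at -0.03 ± 0.27 (SE; limma adjusted p = 0.0948 to 0.959). Tek and Tie1 thus stood on different sides of the threshold, as did the junction genes Cdh5 and Pecam1, and differences between members were not tested. The median over the 10 members was -0.78 and over all genes tested -0.06. The calls rest on all 4 arrays: with 1 array left out 0 to 2 members were called, 0 without the pregnant control, 0 without the virgin control and 2 without either mutant, although all 5 ratios kept their sign. After quantile normalization 3 were called. Pregnant and virgin mice also differed in genotype and, by 1 month, in age, which cannot be told apart from stage here. The same holds for RNA quality. In whole glands fewer endothelial cells and less RNA of these genes per cell cannot be told apart.

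In lactating against virgin glands 9 of the 10 members were lower by the same test, where 28.3% of all genes tested were called lower. Vwf had a fitted log2 ratio of -4.17 ± 0.30 (SE; limma adjusted p = 0.000118). Taken from the signals with the lactating values set to the Y-linked median of 33.6, Vwf was 36.9-fold lower. That fold depends on the floor chosen, as dark probe sets also read above 33.6, and a higher floor would give a smaller fold. Flt1 fell by 1.71 ± 0.25 (limma adjusted p = 0.00142) and Tek stood at -1.68 ± 0.27 (limma adjusted p = 0.00192). Pecam1 fell by 1.54 ± 0.20 (limma adjusted p = 0.000932) and Emcn stood at -1.47 ± 0.21 (limma adjusted p = 0.00134). Each of these 5 genes was lower both between the mutants and between the controls.

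Tie1 at -1.38 ± 0.34, Eng at -1.21 ± 0.27, Esam at -0.93 ± 0.21 and Cdh5 at -0.93 ± 0.22 also passed (SE; limma adjusted p = 0.00816 to 0.0110). Lactating Flt1 and Tie1 signals lay under 184.6, among dark probe sets, so the size of their ratios is uncertain. Kdr, at -0.36 ± 0.22, was the member not called (limma adjusted p = 0.214), and it was called at -0.95 after each array was centred on its median (limma adjusted p = 0.0129). The median of all genes tested was -0.10 at the deposited scaling and -0.69 after that centring, and the median of the members was -1.42 and -2.02. With 1 array left out 7 to 9 members were called. Without the virgin control, Cdh5 and Tie1 had limma adjusted p = 0.110 and 0.137, and without the virgin mutant, Eng and Esam had 0.0749 and 0.0615.

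In lactating against pregnant glands 4 of the 10 members were called, all lower, where 16.8% of all genes tested were called lower. Vwf stood at -2.39 ± 0.30 (SE; limma adjusted p = 0.00331), or 9.6-fold lower from the signals with the same floor, on which that fold depends. The others were Pecam1 at -1.19 ± 0.20 (limma adjusted p = 0.00721), Eng at -1.19 ± 0.27 (limma adjusted p = 0.0174) and Flt1 at -0.98 ± 0.25 (limma adjusted p = 0.0251). Cdh5, the cadherin that was lowest in pregnancy, stood at 0.63 ± 0.22 and was the member with a positive ratio (limma adjusted p = 0.0595). Tie1 at -0.79 ± 0.34, Tek at -0.41 ± 0.27, Emcn at -0.41 ± 0.21, Kdr at -0.26 ± 0.22 and Esam at -0.10 ± 0.21 were not called (SE; limma adjusted p = 0.108 to 0.744). The median was -0.60 over the members and -0.04 over all genes. After median centring all genes had a median of -0.45 and 6 members were called, with Tie1 and Emcn added. With 1 array left out 1 to 4 members were called, 2 without the pregnant mutant and 1 without the pregnant control. The titles give the lactating arrays an array date of their own, so in both lactation comparisons stage cannot be told apart from array date or from age, and against pregnancy not from genotype. Against virgin glands it can also not be told apart from RNA quality. The stage comparisons share arrays and are not independent of each other.

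**Figure D2:**
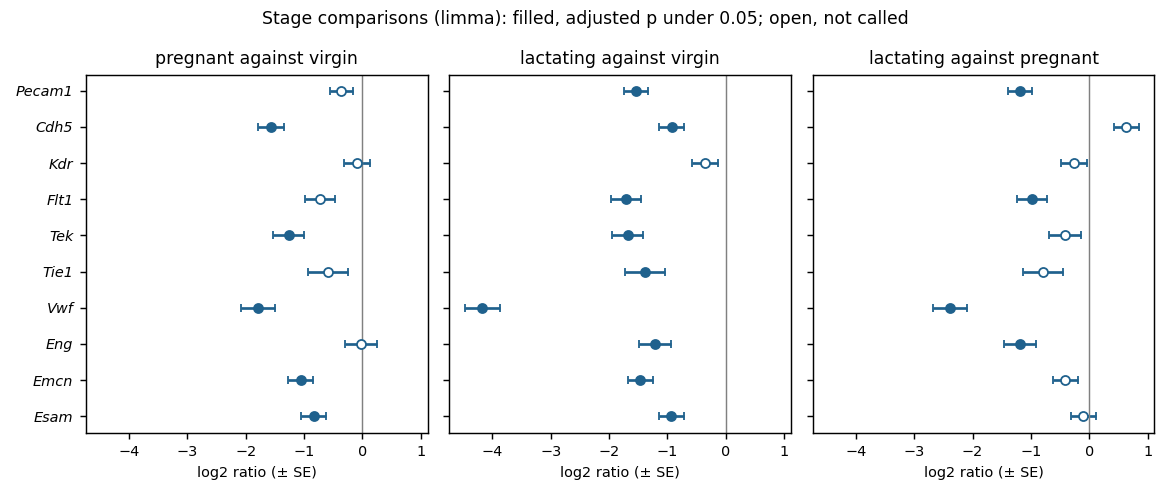
Log2 ratio with its standard error for each endothelial gene in 3 stage comparisons (x axis), 2 arrays a stage; filled circles have a limma adjusted p under 0.05. Filled circles number 5 in pregnant against virgin, 9 in lactating against virgin and 4 in lactating against pregnant glands, all left of 0, and Cdh5 lies right of 0 in the last panel.

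Between mutant and control none of the members was called, as for every other gene: 0% of the 11495 genes passed (limma with stage as a block, 3 pairs). The pairs were pooled although the pregnant pair carried the conditional allele with Cre and the virgin and lactating pairs did not. The ratios and intervals thus average over both kinds of mutant, and a difference between the kinds was not tested. No member reached an unadjusted limma p under 0.05, which 540 of the 11495 genes tested did. The members' median ratio was 0.03, as was that of all genes tested, and 8 of the 10 members had positive ratios. Tie1 had the highest ratio, 0.48 ± 0.27 (SE, n = 3 pairs; limma adjusted p = 0.938), with a 95% interval from -0.16 to 1.12. By stage its ratio was 0.10 for virgin, 0.30 for pregnant and 1.05 for lactating mice, the last from signals of 165 in the mutant and 52.8 in the control, both among dark probe sets. Pecam1 stood at 0.28 ± 0.17 with an interval from -0.11 to 0.66, and these 2 genes were the members whose sign was the same in all 3 pairs.

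Cdh5 had the lowest ratio, -0.22 ± 0.18 (SE, n = 3 pairs; limma adjusted p = 0.938), with a 95% interval from -0.63 to 0.19. For Kdr, Flt1 and Emcn the ratio was 0.01 each, with intervals that reach from -0.42 to 0.44, -0.47 to 0.49 and -0.40 to 0.42. Changes in these genes within those intervals are not excluded by the 3 pairs. The intervals are not a limit of detection, since they are not adjusted for the number of genes tested. Larger changes could also have gone uncalled, as the lowest limma adjusted p of any gene was 0.938. Tek stood at 0.10, Eng at 0.08, Vwf at 0.04 and Esam at -0.12. Vwf has no interpretable ratio in the lactating pair, where both signals lay under the Y-linked median, yet that pair enters its fitted ratio.

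By pair the picture differed between stages. In the pregnant pair, with the conditional allele, 9 of the 10 members were higher in the mutant, from 0.06 for Cdh5 to 0.31 for Eng, and Flt1 was lower at -0.22. The median was 0.20 over the members and 0.02 over all genes, of which 52.3% were higher. In the virgin pair 5 members were higher and 5 lower, from -0.50 for Cdh5 to 0.46 for Pecam1, and in the lactating pair, without Vwf, 5 were higher and 4 lower. Those lactating ratios ranged from -0.46 for Eng to 0.48 for Tek, beside Tie1, whose 1.05 comes from dark signals. Tek, Kdr and Cdh5 had negative ratios in the virgin pair (-0.47, -0.34 and -0.50), and Eng, Esam and Emcn in the lactating pair (-0.46, -0.44 and -0.21). With 1 pair a stage, ratios within a stage and differences between them carry no test.

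**Figure D3:**
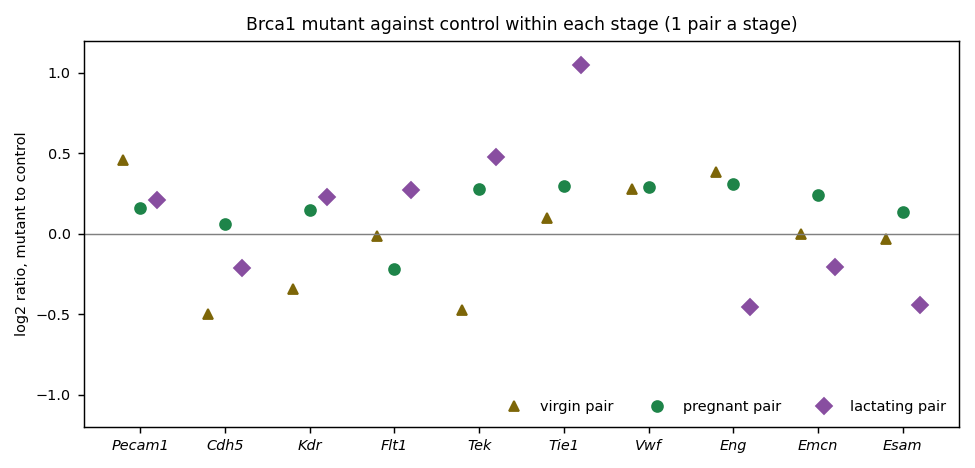
Log2 ratio of Brca1 mutant to control within each stage for the 10 endothelial genes, 1 pair a stage (yellow triangles virgin, green circles pregnant, purple diamonds lactating). In the pregnant pair 9 of 10 genes lie above 0, in the virgin pair 5 of 10 and in the lactating pair 5 of 9, with Vwf left out there and Tie1 at 1.05 from dark signals.

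Where a gene had further probe sets, these did not all follow the brightest. The second Cdh5 probe set read 41.3 and 35.8 in the virgin, 83.9 and 109 in the pregnant and 162 and 112 in the lactating mutant and its control, all under 184.6, and was too dim to be tested. The second Eng probe set read 424 and 596 in the virgin, 260 and 306 in the pregnant and 493 and 342 in the lactating mutant and its control. It was therefore not lowest in lactation, and when all 19481 probe sets past the filter were tested none of its stage ratios was called (limma adjusted p = 0.122 to 0.466). Which part of the transcript each probe set reads was not looked up here.

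The other 3 Flt1 probe sets were dimmer and differed in their order of stages. The first, 1440926_at, read 252 and 276 in the virgin, 204 and 170 in the pregnant and 300.0 and 345 in the lactating mutant and its control, with the lactating glands highest and no stage ratio called (limma adjusted p = 0.100 to 0.474). The next, 1451756_at, read 278 and 227 in the virgin, 403 and 371 in the pregnant and 156 and 99.7 in the lactating mutant and its control, with the pregnant glands highest. It was called lower in lactating against pregnant glands at -1.30 ± 0.27 (SE; limma adjusted p = 0.0111) and against virgin glands at -0.77 ± 0.27 (limma adjusted p = 0.0432). The last, 1454037_a_at, read 121 and 101 in the virgin, 252 and 154 in the pregnant and 146 and 20.2 in the lactating mutant and its control. Flt1 gives rise to a membrane receptor and to soluble forms made by alternative processing, and the probe sets were not assigned to these forms here. With the mean of each gene's probe sets in place of the brightest, Flt1 stood at 0.00 in pregnant against virgin glands and Cdh5 at -0.43 (limma adjusted p = 0.205), so the results for these genes are those of their brightest probe sets.

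**Figure D4:**
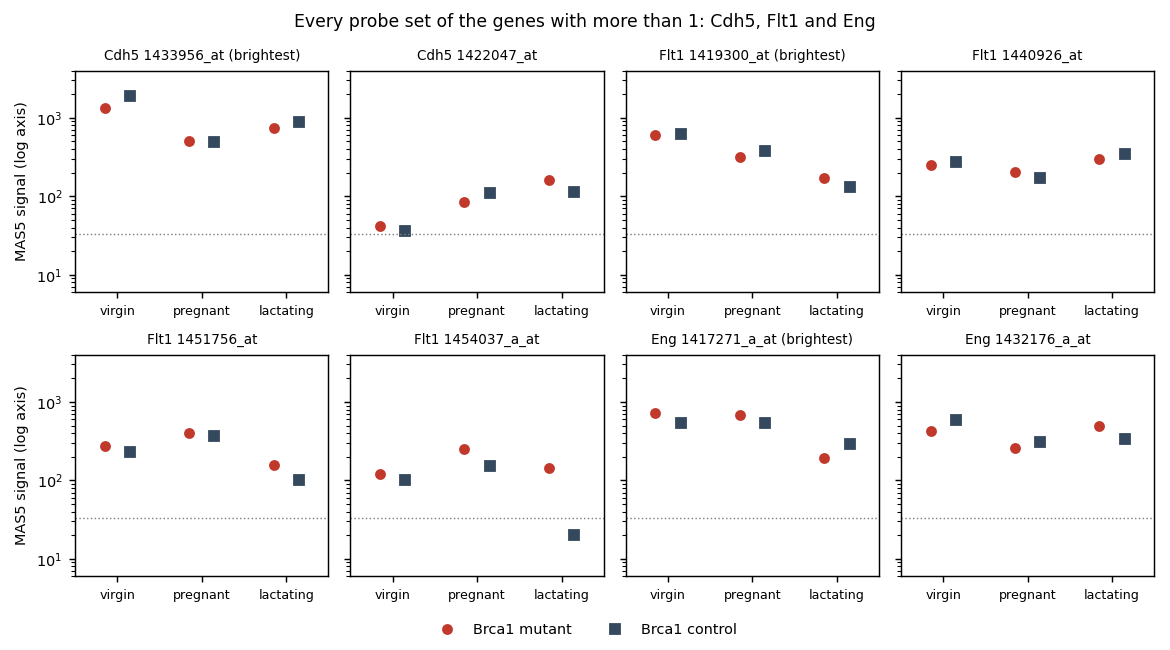
MAS5 signal (log axis) by stage for all probe sets of Cdh5, Flt1 and Eng, with red circles for mutants and dark grey squares for controls, 1 mouse each; the dotted line is the Y-linked median of 33.6. The brightest Flt1 and Eng probe sets are lowest in lactation, while Flt1 1440926_at is highest there and the second Eng probe set is lowest in pregnancy.

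The members varied together over the arrays to different degrees. Over the 6 arrays, which share their stage and genotype structure, all 45 pairs of members had a positive Pearson r of log2 values, from 0.10 for Cdh5 with Eng to 0.97 for Flt1 with Vwf, with a median of 0.79. Against the mean of the other 9 members, Vwf had r = 0.97, Flt1 and Emcn 0.97 each and Tek 0.93, while Kdr had 0.75, Eng 0.77 and Cdh5 0.54. With 3 stages setting most of the variation these are descriptions of the stage pattern. The genes outside the members that most resembled their mean profile over the same 6 arrays were Sema4a, Ighv14-2, Lhfp, Gimap4, Btbd3 and Zfp521, with r of 0.997 to 0.999. Ighv14-2 is an antibody variable segment and Gimap4 a GTPase of lymphocytes. Gimap4 read 3211 and 3619 in the virgin, 1278 and 1006 in the pregnant and 528 and 453 in the lactating mutant and its control.

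Genes that act on or with the members were described by further lists. Of 13 tested vascular growth factor genes, 1 was called higher and 3 lower in pregnant against virgin glands (median -0.39), where 6.45% of all genes tested were called higher and 8.26% lower. Apln, the ligand of the apelin receptor, was the one higher, by 2.83 ± 0.28 (SE; limma adjusted p = 0.00236), with 4629 and 3576 in the pregnant mutant and control and 688 and 400 in the virgin mutant and control. Its receptor Aplnr was lower, at -1.05 ± 0.27 (limma adjusted p = 0.0410), and not called after quantile normalization (limma adjusted p = 0.0564). Cxcl12, a chemokine for leukocytes and vessels, stood at -1.71 ± 0.19 (limma adjusted p = 0.00331), Vegfd at -1.34 ± 0.25 (limma adjusted p = 0.0142) and the guidance factor Sema3c at -0.86 ± 0.19 (limma adjusted p = 0.0256).

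Named here as the ligands of the receptor members, after their values were seen, are Vegfa, Angpt1 and Angpt2. Vegfa, the main ligand of Kdr and Flt1, read 1538 and 1114 in the pregnant mutant and control, against 1372 and 1895 in the virgin mutant and control, and was not called in any stage comparison (log2 ratios -0.29, -0.18 and 0.11). Angpt1, the Tek agonist, was higher in lactating than in virgin glands, at 1.93 ± 0.35 (SE; limma adjusted p = 0.00329), with 1204 and 3870 in the lactating mutant and its control and 405 and 687 in the virgin mutant and control. Angpt2, which can oppose Angpt1 at Tek, was lower in lactating than in virgin glands, at -1.37 ± 0.25 (limma adjusted p = 0.00359), with 152 and 147 in the lactating mutant and its control and 514 and 424 in the virgin mutant and control. Those lactating Angpt2 values lay under 184.6, among dark probe sets, so the size of this ratio is uncertain. In lactating against virgin glands the growth factor list had 3 genes called higher and 6 lower. Of all genes tested 23.7% were called higher, close to the list's own share, and 28.3% lower.

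Of 24 further vascular receptors and partners, 0 were called higher and 5 lower in pregnant against virgin glands (median -0.21, with 1 called lower after quantile normalization and 9 after median centring). In lactating against virgin glands 4 were called higher and 8 lower (median -0.48), near the shares of all genes tested. Those shares were 23.7% higher and 28.3% lower, and in pregnant against virgin glands 6.45% and 8.26%. Nrp1, a co-receptor for VEGF and semaphorins, was lower in both, at -1.04 ± 0.21 (SE; limma adjusted p = 0.0198) in pregnant and -2.18 ± 0.21 (limma adjusted p = 0.000338) in lactating glands. Also lower in lactating glands were Calcrl, the adrenomedullin receptor, at -2.70 ± 0.29 and Aplnr at -2.38 ± 0.27 (limma adjusted p = 0.000451 and 0.000542), while the integrin subunit gene Itga5 was higher at 2.16 ± 0.29 (limma adjusted p = 0.000966). Calcrl read 177 and 95.8 in the lactating mutant and its control, and Itga5 read 90 and 68.8 in the virgin mutant and control. These signals lay under 184.6, among dark probe sets, so the size of the Calcrl and Itga5 ratios is uncertain. Bmpr2, a receptor that works with Eng, was lower in pregnant glands at -0.75 ± 0.18 (limma adjusted p = 0.0348), and not called after quantile normalization (limma adjusted p = 0.0520).

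Other endothelial surface and junction genes had 11 of 35 called lower and 1 higher in pregnant against virgin glands (median -0.60), and 19 lower and 1 higher in lactating against virgin glands (median -0.75). Of all genes tested 8.26% and 28.3% were called lower in these comparisons, and 6.45% and 23.7% higher. Vcam1, which captures leukocytes on activated endothelium, stood at -1.60 ± 0.25 in pregnant glands (SE; limma adjusted p = 0.00789) and at -3.85 ± 0.25 in lactating glands (limma adjusted p = 9.88e-05). Ptprb, the phosphatase that acts on Tek, stood at -1.11 ± 0.20 in pregnant glands (limma adjusted p = 0.0126), and Icam2 at -2.83 ± 0.29 in lactating glands (limma adjusted p = 0.000363). Lactating Icam2 read 51 and 47.4 in the mutant and its control, and lactating Vcam1 read 130 and 232. All but the last lay under 184.6, among dark probe sets, so the size of these lactating ratios is uncertain. The 1 gene called higher in pregnancy was Plvap, the diaphragm protein of fenestrated capillaries, at 0.86 ± 0.22 (limma adjusted p = 0.0397). It read 791 and 671 in the pregnant mutant and control and 370 and 386 in the virgin mutant and control, and it was named after its values were seen. After quantile normalization and after median centring 0 genes of this list were called higher in pregnancy, with 6 and 13 called lower. In lactating against virgin glands centring gave 26 lower and 0 higher.

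Endothelial transcription factors, some of which bind the GGAA core marked in the promoters, had 9 of 20 called lower and 1 higher in pregnant against virgin glands (median -0.75), and 11 lower and 2 higher in lactating against virgin glands (median -0.75). The shares of all genes tested were 8.26% and 28.3% lower, and 6.45% and 23.7% higher. No call of a higher level remained in pregnancy after quantile normalization (6 lower) or median centring (12 lower), nor in lactation after centring (14 lower, 0 higher). Ets1 stood at -1.48 ± 0.22 in pregnant glands (SE; limma adjusted p = 0.00717) and at -2.70 ± 0.22 in lactating glands (limma adjusted p = 0.000179). Klf2, a factor induced by blood flow, stood at -1.42 ± 0.22 and -1.69 ± 0.22 (limma adjusted p = 0.00785 and 0.000844). Fli1 fell by 2.30 ± 0.26 in lactating glands (limma adjusted p = 0.000492). Gata2 was higher in lactating than in pregnant glands, at 1.34 ± 0.22 (limma adjusted p = 0.00598). Ets1, Klf2 and Fli1 are also made by leukocytes, so they do not mark endothelium alone. In mutant against control 0 genes of these 4 lists were called, and their medians were -0.06, 0.02, -0.02 and 0.04.

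Markers of other cells in the gland moved with the stages as well, and their part in the members' results was not tested. Of 15 leukocyte markers 10 were called lower in pregnant against virgin glands (median -1.75) and 12 in lactating against virgin glands (median -1.95), where 8.26% and 28.3% of all genes tested were called lower. Their summed signals were 35394 to 40257 in virgin, 16922 to 21351 in pregnant and 17941 to 22697 in lactating glands. Cd14, a monocyte receptor gene named after its values were seen, made up 60.1% and 67.7% of the sums in the lactating mutant and its control, where it read 10782 and 15355. Without it the other 14 genes summed to 37566 and 32855 in the virgin, 15000.1 and 14903 in the pregnant and 7160 and 7342 in the lactating mutant and its control. Ptprc, the pan-leukocyte marker, read 9928 and 7533 in the virgin, 1994 and 1434 in the pregnant and 327 and 328 in the lactating mutant and its control. Pf4, a platelet gene, was at -0.70 ± 0.24 in pregnant (SE; limma adjusted p = 0.0903) and fell by 2.17 ± 0.24 in lactating glands (limma adjusted p = 0.000471). The platelet list of 5 tested genes went the other way, with a median of 0.06 in pregnant and 1.03 in lactating against virgin glands. In the latter 3 were called higher, and Pf4 was the 1 called lower. The sums were 2789 to 3488 in virgin, 2039 to 2534 in pregnant and 2280 to 2359 in lactating glands. Pf4 made up most of the virgin sums, with 1774 and 2772 in the virgin mutant and control.

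Pericyte and vascular smooth muscle genes did not move as 1 group. Of 15 genes, 4 were called higher (2 after median centring) and 1 lower in pregnant against virgin glands, and 5 higher and 4 lower in lactating against virgin glands. Of all genes tested 6.45% were called higher and 8.26% lower in the first comparison, and 23.7% and 28.3% in the second. Rgs5, a pericyte marker, stood at -1.13 ± 0.19 in pregnant and -2.36 ± 0.19 in lactating glands (SE; limma adjusted p = 0.0109 and 0.000173). Acta2 and Des, which are also made by myoepithelium and muscle, were higher in pregnant glands at 0.95 ± 0.22 and 1.92 ± 0.23 (limma adjusted p = 0.0307, or 0.0884 after median centring, and 0.00378). The pericyte sums were 35118 to 35357 in virgin, 43341 to 46977 in pregnant and 41714 to 54360 in lactating glands. Acta2 made up much of these sums, so their rise does not describe the other genes. It read 13663 and 11963 in the virgin, 22813 and 26872 in the pregnant and 36996 and 28388 in the lactating mutant and its control. Lyve1, of lymphatic endothelium and some macrophages, stood at -2.07 ± 0.24 in pregnant and -4.31 ± 0.24 in lactating glands (limma adjusted p = 0.00356 and 7.217e-05). Lactating Lyve1 read 94.3 and 54.9 in the mutant and its control, under 184.6, so the size of the lactating ratio is uncertain. The lymphatic list of 5 tested genes had smaller medians, -0.57 and -0.63. In each comparison 2 were called lower and 0 higher, and in lactating against virgin glands 2 had positive ratios. Prox1, which defines lymphatic endothelium, was too dim to be tested, with at most 71.4 in any virgin or pregnant array, 138 in the lactating mutant and 433 in its control.

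Fibroblast markers had a median of -0.64 in pregnant and -2.97 in lactating against virgin glands over 11 genes, and adipocyte markers -0.82 and -2.51 over 8 genes. The fibroblast sums were 140224 to 145516 in virgin, 79464 to 90671 in pregnant and 16272 to 23982 in lactating glands. The adipocyte sums were 123669 to 125153 in virgin, 78689 to 92648 in pregnant and 48321 to 51973 in lactating glands. Epithelial markers had a median of 0.35 in pregnant and 0.57 in lactating glands over 11 genes (the second -0.02 after median centring), with sums of 45026 to 51012 in virgin, 56100 to 75524 in pregnant and 65228 to 93863 in lactating glands. Milk protein genes had medians of 2.17 and 2.58 over 8 genes, and skeletal muscle genes 3.002 and 1.82 over 10 genes. The muscle sums were 14728 to 42205 in virgin, 162974 to 184473 in pregnant and 84855 to 87650 in lactating glands. All 10 muscle genes were called higher in pregnant against virgin glands, where 6.45% of all genes tested were. How muscle in the dissected tissue bears on the members was not tested. For the members the sums were 10803 to 11301 in virgin, 5478 to 6228 in pregnant and 4085 to 4234 in lactating glands. No list had a marker at a signal of 0, and no red cell marker of the list passed the filter on dim genes.

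**Figure D5:**
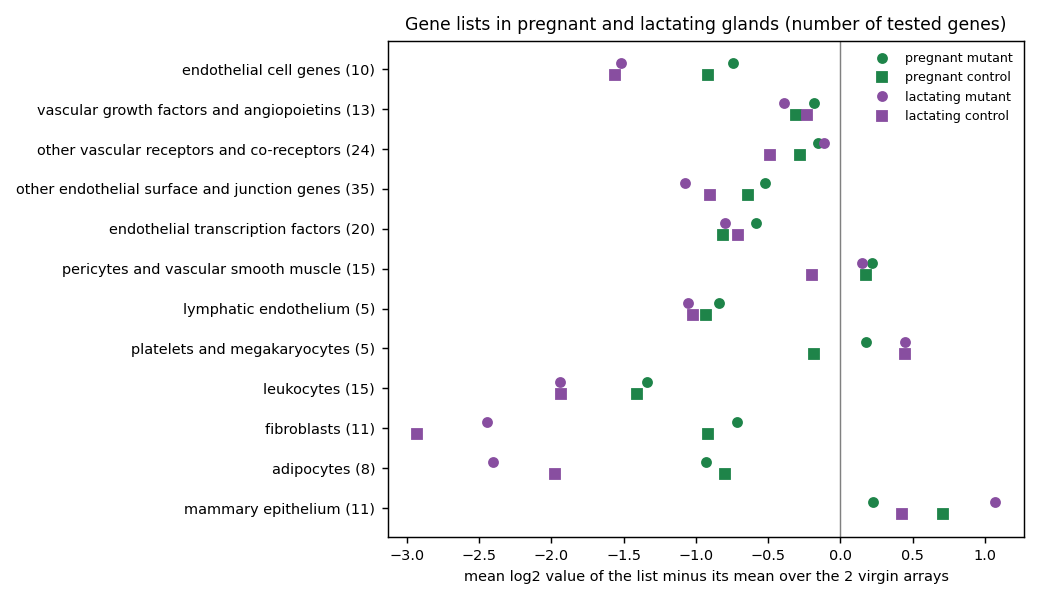
Mean log2 value of each gene list but the milk and muscle ones on each pregnant (green) and lactating (purple) array, minus its mean over the 2 virgin arrays, with circles for mutants and squares for controls and the number of tested genes in brackets. The endothelial genes lie at -0.75 and -0.92 in the pregnant mutant and control and at -1.52 and -1.56 in the lactating mutant and its control, while the fibroblast markers reach -2.93 and the epithelial markers lie above 0 in all 4.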

How the data were processed

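Whole mammary glands of 6 mice were measured on a 3' expression array, 1 mouse per array. The deposited values are MAS5 signal intensities on a linear scale, as the submitters' processing notes name MAS5 without a version; equal 2%-trimmed means show that the authors had scaled them. Genes were named from the platform annotation, and 932 probe sets with several symbols and 9160 unnamed ones were not used. Here the values were turned into log2(signal + 52.1), the 25th percentile of all values. Each gene was represented by its brightest probe set, with those ending in _x_at used only where there was no other. Genes whose mean log2 value lay below 7.715, the median level over probe sets, were left untested.

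All 11495 genes were fitted in limma 3.58.1 (R 4.3.3) with stage and genotype as terms (eBayes with a variance trend; 2 residual degrees of freedom, a prior of 5.578), with Benjamini-Hochberg adjusted p over all genes called at 0.05. The code was tested on simulated data. The members, the gene lists, the tests and the alternatives were chosen with earlier results of these data known. Named were all members, up to 4 genes of each list with the smallest p in a comparison, and the 6 genes most like the members' mean profile; exceptions are marked. The fit of every probe set was added after seeing the data. Alternatives were quantile normalization, median centring, other pseudocounts and filters, averaged probe sets, no variance trend, fewer groups in the fit and each array or pair left out. The number of arrays limits the precision. Trp53 is not analysed here. Figures were drawn with matplotlib 3.10.9.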

Additional observations from a re-analysis of the deposited data

How the results depend on the processing

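The 9 calls in lactating against virgin glands were the steadiest, and those in pregnant against virgin glands and in lactating against pregnant glands the least steady. With 1 array left out the members called numbered 0 to 2, 7 to 9 and 1 to 4 in these 3 comparisons (5, 9 and 4 with all arrays: pregnant against virgin, lactating against virgin and lactating against pregnant), and their medians ranged from -0.826 to -0.773, -1.452 to -1.346 and -0.743 to -0.470. The limma fit then borrows its spread from the other groups. In the same order the medians, -0.781, -1.425 and -0.604 as reported, were -0.725, -1.636 and -0.870 after quantile normalization, -0.957, -2.016 and -1.019 after median centring, -0.830, -1.605 and -0.769 with a pseudocount of 7.9, and -0.682, -1.112 and -0.408 with one of 168.7. With each gene's probe sets averaged they were -0.509, -1.159 and -0.411. A filter at the 75th percentile kept 6 members, with medians of -0.945, -1.199 and -0.333, and called 5 in lactating against virgin and 1 in lactating against pregnant glands. Quantile normalization called 3 in pregnant against virgin glands and the mean of probe sets 2 in lactating against pregnant glands.

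Under the mean of probe sets the sign turned for Flt1 in pregnant against virgin glands, at 0.004, and for Cdh5 in lactating against virgin glands, at 0.060. With 1 array left out, values not called crossed 0 in pregnant against virgin glands for Kdr (-0.364 to 0.165) and Eng (-0.255 to 0.204), and in lactating against pregnant glands for Esam (-0.347 to 0.146). The mutant against control comparison called 0 members under every setting run (0 also at an unadjusted p under 0.05 as reported). Its small ratios changed sign after median centring for Kdr (-0.029), Flt1 (-0.027), Vwf (-0.002) and Emcn (-0.029), with the smaller pseudocount for Vwf (-0.206) and with the larger for Flt1 (-0.003). With 1 pair left out they ranged from -0.098 to 0.187 for Kdr, -0.118 to 0.129 for Flt1, -0.096 to 0.380 for Tek, -0.090 to 0.285 for Vwf, -0.075 to 0.346 for Eng, -0.105 to 0.120 for Emcn and -0.240 to 0.049 for Esam. The cause of these changes was not tested. Median centring put the share of higher among all called genes at 26.5%, 18.4% and 16.4%, against 43.8%, 45.5% and 47.0% as reported, in the order above. Lactating Vwf, Flt1 and Tie1 signals lay among dark probe sets, which limits their ratios. The mutant against control fit pairs mutant and control by stage, and without that block 0 members were called as well.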

Other observations

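A few vascular genes were called higher in the lactating glands, as were 23.7% of all genes tested against virgin and 14.9% against pregnant glands. Nrp2, a co-receptor of lymphatic and venous endothelium and of other cells, read 1036 and 921 in the lactating mutant and its control, against 371 and 249 in the pregnant mutant and its control (log2 ratio 1.53 ± 0.23, SE; limma adjusted p = 0.00490). Gata2, a factor of endothelium and blood progenitors, read 604 and 501 in the virgin mutant and its control, 260 and 240 in the pregnant mutant and its control, and 721 and 705 in the lactating mutant and its control, so it was lowest in pregnancy, as Cdh5 was, though highest in lactation where Cdh5 was highest in virgin glands. Acvrl1, the receptor that Eng assists, read 598 and 529 in the lactating mutant and its control, against 263 and 262 in the virgin mutant and its control (0.96 ± 0.23; limma adjusted p = 0.00985), which was 0.37 and not called after median centring (limma adjusted p = 0.223), and it was picked with its values in view. Erg, an endothelial ETS factor, read 50.7 and 110 in the lactating mutant and its control, against 307 and 299 in the pregnant mutant and its control, and the lactating values lay among dark probe sets.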
